A study of Mus musculus with 6 samples.

Results

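This account describes 40 mouse genes for lysosomal enzymes and lysosomal membrane proteins in embryonic stem cells that lack Dppa2. The genes were taken from a fixed list of names, and each was read from the brightest array probe that carries its name. All 40 had a named probe, out of 18516 genes with one on the array, and 38 of them entered the fit of 13297 genes. The list was drawn up with results of these data in view, because Aga and Ctsh had stood out among the genes with wide differences. The values of those 2 genes are therefore given as a description, with no test. The question was whether Aga and Ctsh moved alone or together with the other genes of the organelle.

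RNA was measured on 6 Agilent 1-colour arrays, 2 in each of 3 groups of embryonic stem cells, in a study that put Dppa2 back into knockout cells. Dppa2, named ECAT15-2 in the labels, is a protein of pluripotent cells and the germline, and Dppa4, named ECAT15-1, is its paralogue. The group WT had the genotypes 15-1+/+ and 15-2+/+ and no transduction. The group 15-2KO_mock had the genotypes 15-1CT/CT and 15-2-/- and carried the empty piggyBac-CAG-IP vector. The group 15-2KO_Flag15-2 consisted of the same knockout lines with piggyBac-CAG-Flag15-2-IP, which makes Flag-tagged Dppa2 from the CAG promoter. All cells came from a mixed 129Sv and C57/BL6 background and were grown for 3 days on gelatin in 15% serum with LIF. Replicates 1 and 2 derive from blastocysts of different mothers, so each knockout group holds 2 lines, and the mock and Flag15-2 arrays of the same number share a line. WT and knockout lines differ in the Dppa4 allele and in transduction as well as in Dppa2, and these cannot be told apart in a comparison with WT.

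The lysosome is an acidic organelle in which hydrolases break down proteins, sugars, sulfated glycans and lipids that arrive by endocytosis and autophagy. Most of its soluble enzymes are tagged with mannose 6-phosphate on the way, a proton pump in its membrane keeps it acidic, and heavily glycosylated membrane proteins line it. Factors of the Tfeb family are known to raise many of these genes together through a short promoter motif. Because the genes are expressed in nearly all cell types, embryonic stem cells included, the list is largely one of housekeeping genes, with a few cathepsins known from macrophages and other specialised cells.

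Levels are log2 signals minus the 75th percentile of the array, and a difference of 1 is a 2-fold change. Signals of different probes are not compared with each other. Between 55.8% and 60.3% of the probes of an array exceeded background, and the small number of arrays limits the precision. Dppa2 itself read 2.13 and 2.07 in WT, -2.09 and -2.0 in mock, and -0.05 and 0.35 in Flag15-2, so the groups stood in the order their labels give, with Flag15-2 below WT. The Y-linked gene Eif2s3y was well above background only in WT, so Y-linked RNA also differs between WT and the knockout lines, while the median over 381 X-linked genes differed from WT by -0.01 to 0.04 on the knockout arrays. WT and mock arrays shared 1 slide and both Flag15-2 arrays lay on another, so slide and Flag15-2 cannot be told apart. The 7 measured embryonic stem cell markers were well above background on every array.

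The 2 WT arrays, labelled as lines from different mothers, differed by less than the measurement error. Of 14943 bright spots, 0.442% differed between them by more than 1.96 times the scanner's error, against 22.2% between the mock arrays and 24.9% between the Flag15-2 arrays. The median SD over the 34 lysosomal genes well above background everywhere was 0.03 in WT, 0.17 in mock and 0.14 in Flag15-2. WT was therefore counted as 1 sample when its mean over the 2 arrays is given, and no error is attached to that mean. The planned limma fit of all 6 arrays, which gave the main calls, adjusted p and SE, still counts WT as 2 arrays. It takes part of its spread from this close pair. It has no term for the knockout line, so mock and Flag15-2 arrays of the same line are not paired in it. With the WT arrays averaged into 1 sample, limma called none of the 38 lysosomal genes and none of the 18763 features in any comparison, while 11, 9 and 3 of the 38 genes had an unadjusted p under 0.05 in mock against WT, Flag15-2 against mock and Flag15-2 against WT. The share of all features with such a p was 12.2%, 7.83% and 8.34%. The 38 genes include Aga and Ctsh, which were picked for their differences, so no excess is read from these counts. Each call below thus holds only with both WT arrays in the fit.

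Aga and Ctsh, the genes around which the list was drawn up, were not well above background in mock. Aga encodes the amidase that splits the sugar-asparagine bond in the last steps of glycoprotein breakdown, and Ctsh is a cysteine protease with aminopeptidase activity. Aga read -0.31 and -0.32 in WT, -6.92 and -7.87 in mock, and 0.13 and 0.77 in Flag15-2. Its probe was well above background on both WT and both Flag15-2 arrays and on neither mock array, and no mock array came near the others. The mean was -0.31 in WT, -7.39 ± 0.67 (SD, n = 2) in mock and 0.45 ± 0.45 (SD, n = 2) in Flag15-2. Measured against the dimmest probes well above background, Aga was at least 32.9-fold lower in mock than in WT and at least 55.9-fold higher in Flag15-2 than in mock. These bounds take the mean of the bright group against the lowest signal among detected probes on each dim array. They hold only for the scanner's background-subtracted signal, as do the bounds for other genes below. With another background correction (normexp), Aga differed by -3.20 for mock minus WT and 3.87 for Flag15-2 minus mock.

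Ctsh read -1.67 and -1.45 in WT, -7.24 and -6.32 in mock, and -0.51 and -1.01 in Flag15-2. It too was well above background on all WT and Flag15-2 arrays and on no mock array, with no overlap between mock and the other groups. The mock mean was -6.78 ± 0.65 (SD, n = 2) and the Flag15-2 mean -0.76 ± 0.35 (SD, n = 2), against -1.56 in WT. Ctsh was at least 13.8-fold lower in mock than in WT and at least 24.1-fold higher in Flag15-2 than in mock. Within lines 1 and 2, Flag15-2 stood at least 36-fold and at least 86.8-fold above mock for Aga, and at least 23.0-fold and at least 25.2-fold for Ctsh. Compared with WT, Flag15-2 arrays stood 0.76 higher for Aga and 0.80 higher for Ctsh. In such bulk RNA, fewer cells that express a gene and less RNA per cell cannot be told apart. Each gene had a single probe on the array.

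**Figure D1:**
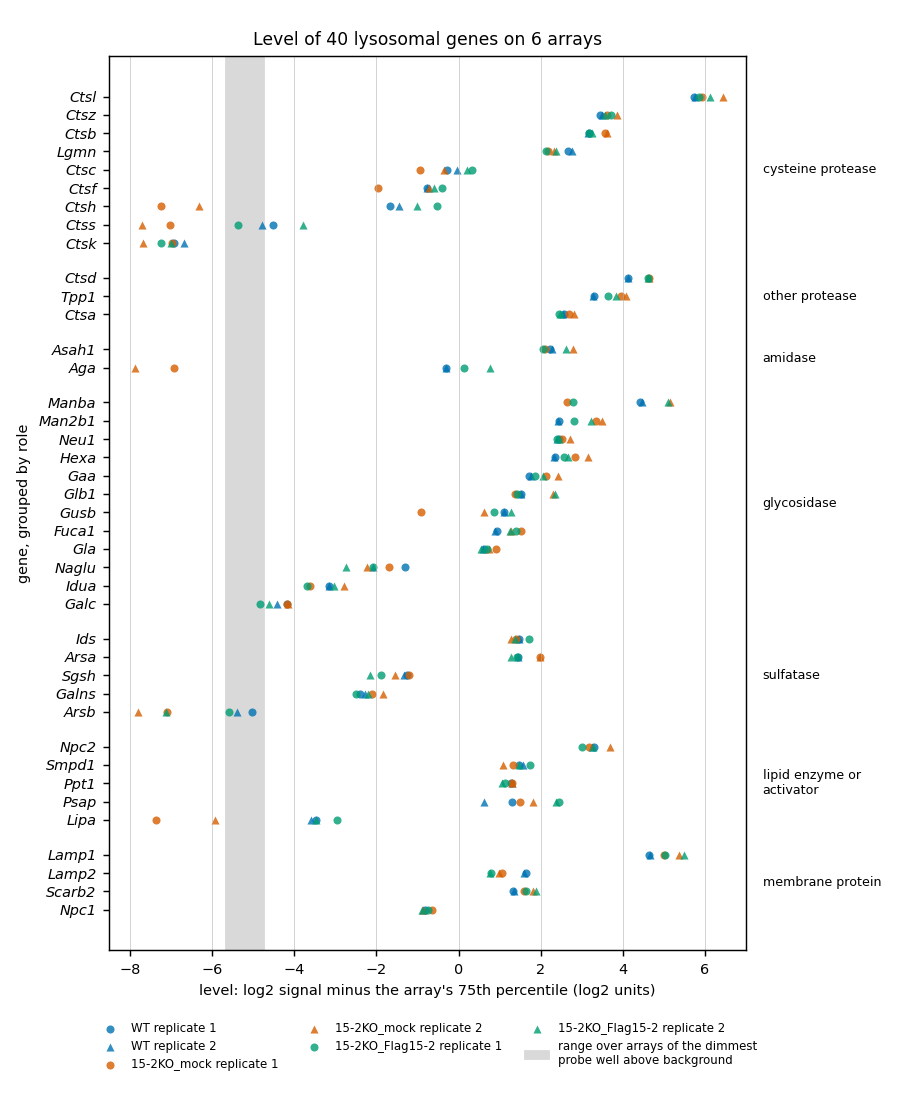
Level of each of the 40 lysosomal genes (log2 signal minus the array's 75th percentile) on each of the 6 arrays, grouped by role, with circles for replicate 1 and triangles for replicate 2; the grey band spans the dimmest probe well above background on each array, from -5.67 to -4.74, and the order of genes within a role carries no test. The orange mock symbols lie left of the band for Aga, Ctsh, Ctss, Lipa and the undetected Ctsk and Arsb, while for the other 34 genes all 6 symbols lie to the right of it or within its upper part.

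For most of the other genes the 3 groups lay close together. Among the 34 genes well above background on all 6 arrays, mock minus WT ranged from -1.25 for Gusb to 0.98 for Man2b1, with a median of 0.20 against 0.06 over the 15918 features that met the same condition. Flag15-2 minus mock ranged from -0.65 for Arsa to 1.21 for Gusb, with a median of -0.18 against -0.01. Only 1 of these 34 genes, Gusb, differed by at least 1 log2 unit between mock and WT, which is 2.94% of them, against 7.21% of the features. The condition leaves out Lipa and Ctss, which were well above background on no mock array. Over the 36 tested genes other than Aga and Ctsh the share was 8.33%, against 12.4% of all features tested. Over all 38 tested genes, Aga and Ctsh included, the median was 0.17 for mock minus WT, against 0.05 over all 18763 features, and -0.11 for Flag15-2 minus mock, against -0.01. Without mock replicate 1 these medians of the 38 genes were 0.33 and -0.20, and without mock replicate 2 they were 0.094 and -0.0056.

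In mock against WT, where limma called 6.12% of all features at an adjusted p under 0.05, it called 4 of the 36 tested genes other than Aga and Ctsh, and 13 of the 36 had an unadjusted p under 0.05, against 27.3% of all features. Lipa and Lamp2 were lower, where 3.65% of all features were called, and Ctsd and Tpp1 were higher, where 2.47% were. Lipa and Ctss entered the fit only through WT and Flag15-2 arrays, where they were high, so nothing is read from their p. In Flag15-2 against mock, where 0.741% of all features were called (0.704% higher and 0.0373% lower), limma called none of these 36 genes, and 10 of them had an unadjusted p under 0.05, against 13.4% of all features. In Flag15-2 against WT, where 0.533% of all features were called (0.144% higher and 0.389% lower), it called none of the 36, and 11 had an unadjusted p under 0.05, against 21.6% of all features. The 4 calls were not stable. With the replicate number as a block, or with either WT array left out, none of the 36 genes was called in mock against WT. Ctsd, Tpp1 and Lamp2 lost their call when any single array was left out, with adjusted p of 0.0656, 0.053 and 0.0586 in limma without a Flag15-2 array. Lipa kept it only without mock replicate 2 (limma adjusted p = 0.0324), where Flag15-2 minus mock was called as well (4.15, limma adjusted p = 0.0499). Without a Flag15-2 array Man2b1 and Ctss were called instead, in mock against WT. Man2b1 was also called with normexp, quantile normalization, the series matrix values, the stricter filter and an intensity trend, at adjusted p from 0.0312 to 0.0448 in limma, and Arsa, Hexa and Ctsb were called with normexp and with the trend, Arsa with the stricter filter too.

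**Figure D2:**
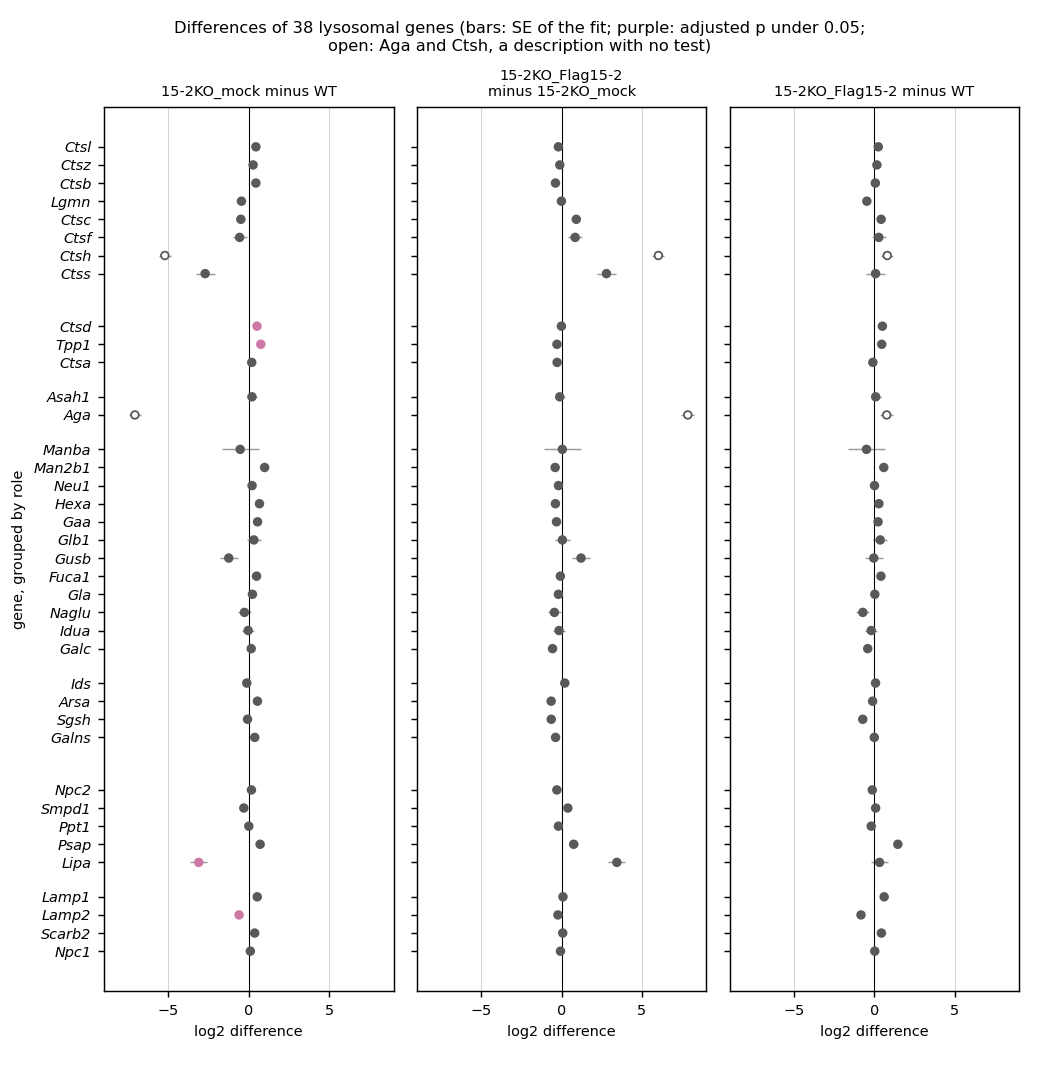
Log2 difference of the 38 tested lysosomal genes in each comparison, with bars for the standard error of the limma fit; purple points have an adjusted p under 0.05 in the fit of all 6 arrays, and open points mark Aga and Ctsh, given as a description. In the left panel Aga, Ctsh, Lipa and Ctss stand at -7.08, -5.22, -3.11 and -2.71, and in the middle panel the same genes stand at 7.84, 6.02, 3.43 and 2.79, while the others lie between -1.25 and 1.21.

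The 9 cysteine proteases of the list, enzymes with a catalytic cysteine that include most cathepsins, held Ctsh and a second gene with low mock values, Ctss. Ctss, the cathepsin of antigen-presenting cells that trims the invariant chain, read -4.53 and -4.77 in WT, -7.03 and -7.69 in mock, and -5.37 and -3.78 in Flag15-2. The mock values lay below all others, but the probe was well above background on 1 WT and 1 Flag15-2 array alone. The difference of mock minus WT was -2.71 (limma adjusted p = 0.0754), and Flag15-2 minus mock was 2.79 (limma adjusted p = 0.175). Neither difference was called. Ctss entered the fit only through that WT and that Flag15-2 array, so nothing is read from its p. No bound is given, since the means of WT and Flag15-2 each include an array that was not well above background.

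Ctsk, the cathepsin known from osteoclasts, was not well above background on any array, with values from -7.67 to -6.68, so no fold is given. The other cysteine proteases were well above background on all arrays. Ctsb, a broadly expressed cathepsin, read 3.17 and 3.15 in WT, 3.57 and 3.62 in mock, and 3.18 and 3.25 in Flag15-2. Mock stood above both other groups there without overlap, by 0.44 against WT (limma adjusted p = 0.068). Ctsl, the cathepsin that processes many lysosomal proteins, differed by 0.44 and Ctsz, a carboxypeptidase, by 0.27 between mock and WT, and neither was called. Lgmn, the asparaginyl endopeptidase that matures other cathepsins, read 2.67 and 2.75 in WT, 2.18 and 2.33 in mock, and 2.12 and 2.37 in Flag15-2. All 4 knockout arrays were below WT for Lgmn, with or without Dppa2 (mock minus WT -0.46, limma adjusted p = 0.12). Ctsc, the dipeptidyl peptidase that activates granule proteases, read -0.27 and -0.03 in WT, -0.95 and -0.35 in mock, and 0.33 and 0.20 in Flag15-2. It was lowest in mock without overlap, and its difference of 0.91 between Flag15-2 and mock was not called (limma adjusted p = 0.237). Ctsf read -0.76 and -0.77 in WT and -1.96 and -0.72 in mock, so that 1 mock array carried the lower mean.

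The remaining proteases are Ctsd, an aspartic protease, Tpp1, a serine peptidase that cuts tripeptides from protein ends, and Ctsa, a serine carboxypeptidase that also protects neuraminidase and beta-galactosidase. Ctsd read 4.13 and 4.12 in WT, 4.63 and 4.63 in mock, and 4.62 and 4.62 in Flag15-2. All 4 knockout arrays stood above both WT arrays, 1.42-fold in mock (limma adjusted p = 0.0484), and Flag15-2 did not differ from mock beyond the spread (difference -0.01, SE 0.08). A second Ctsd probe gave a difference of 0.78 between mock and WT (limma adjusted p = 0.0505). Tpp1 read 3.29 and 3.26 in WT, 3.96 and 4.08 in mock, and 3.64 and 3.82 in Flag15-2. Mock was above WT without overlap, 1.68-fold (limma adjusted p = 0.0417), and the Flag15-2 arrays lay between the groups. A second Tpp1 probe differed by 1.01 in the same direction (limma adjusted p = 0.124). Ctsa was not called in any comparison, and its mock minus WT difference was 0.18.

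Asah1, the acid ceramidase and the other amidase of the list, did not show the pattern of Aga. It read 2.22 and 2.28 in WT, 2.11 and 2.79 in mock, and 2.06 and 2.61 in Flag15-2. The line 2 arrays were the high ones in both knockout groups, and the groups overlapped.

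All 12 glycosidases, which remove single sugars from glycoproteins, glycolipids and glycosaminoglycans, were well above background on every array, and none was called in any comparison. Their median was 0.21 for mock minus WT and -0.20 for Flag15-2 minus mock. Man2b1, the lysosomal alpha-mannosidase, had the highest mock minus WT difference of the list and read 2.45 and 2.42 in WT, 3.34 and 3.49 in mock, and 2.81 and 3.22 in Flag15-2. Both mock arrays lay above all others, 1.98-fold above WT, and the limma adjusted p was 0.0508. Hexa, the alpha subunit of hexosaminidase, read 2.34 and 2.33 in WT, 2.85 and 3.16 in mock, and 2.56 and 2.68 in Flag15-2. The groups did not overlap, with Flag15-2 between WT and mock (mock minus WT 0.66, limma adjusted p = 0.0708). Gaa, the acid alpha-glucosidase, Gla, the alpha-galactosidase, Neu1, a neuraminidase, and Fuca1, a fucosidase, differed by 0.54, 0.22, 0.20 and 0.48 between mock and WT.

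Gusb, the beta-glucuronidase, had the lowest difference among genes well above background everywhere. It read 1.10 and 1.11 in WT, -0.91 and 0.63 in mock, and 0.86 and 1.27 in Flag15-2. Both mock arrays lay below all others, but they differed from each other by 1.54, and neither the difference of -1.25 from WT (limma adjusted p = 0.234) nor the 1.21 of Flag15-2 minus mock (limma adjusted p = 0.451) was called. Idua, the alpha-iduronidase, Naglu, an N-acetylglucosaminidase of heparan sulfate breakdown, and Galc, the galactosylceramidase, had mock minus WT differences of -0.04, -0.27 and 0.15.

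Manba and Glb1 differed more by line than by group. Manba, the beta-mannosidase, read 4.41 and 4.46 in WT, 2.64 and 5.15 in mock, and 2.80 and 5.09 in Flag15-2. Line 2 stood above line 1 by 2.51 in mock and by 2.29 in Flag15-2, and a second Manba probe read 0.78 and 3.24 in mock and 1.00 and 3.24 in Flag15-2. Glb1, the beta-galactosidase, read 1.52 and 1.53 in WT, 1.38 and 2.30 in mock, and 1.43 and 2.35 in Flag15-2. The line difference was 0.92 in each knockout group. Among the 34 genes, Manba, Glb1, Idua, Asah1 and Naglu differed between the lines by at least 0.5 in the same direction in both groups. Only Manba did so by at least 1. The share of all features that did so was not computed, so this is not read as a trait of lysosomal genes.

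Sulfatases remove sulfate groups from glycans and lipids. Arsa, the enzyme for sulfatide, read 1.45 and 1.46 in WT, 1.99 and 1.99 in mock, and 1.41 and 1.27 in Flag15-2. Mock stood above the other groups without overlap, by 0.54 against WT (limma adjusted p = 0.0542), and Flag15-2 minus mock was the lowest value of that comparison at -0.65 (limma adjusted p = 0.0969). Sgsh, the heparan N-sulfatase, read -1.26 and -1.33 in WT, -1.21 and -1.54 in mock, and -1.89 and -2.16 in Flag15-2, so that the Flag15-2 arrays were the low ones. Galns, which acts on keratan sulfate, and Ids, the iduronate sulfatase, had mock minus WT differences of 0.37 and -0.13. Arsb, the dermatan sulfate enzyme, was not well above background on any array, with values from -7.79 to -5.01, and no fold is given.

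Lipa was the 1 other gene detected on all WT and Flag15-2 arrays and on neither mock array. It encodes the acid lipase that frees cholesterol and fatty acids from lipoprotein esters. Lipa read -3.47 and -3.59 in WT, -7.36 and -5.93 in mock, and -2.95 and -3.47 in Flag15-2. The mock values did not overlap the others. The mock mean was -6.64 ± 1.01 (SD, n = 2) and the Flag15-2 mean -3.21 ± 0.37 (SD, n = 2). Lipa was at least 3.54-fold lower in mock than in WT (limma adjusted p = 0.0486). It entered the fit only through its WT and Flag15-2 arrays, where it was high, so nothing is read from its p. Flag15-2 stood at least 4.42-fold above mock, which was not called (difference 3.43, limma adjusted p = 0.101), and Flag15-2 minus WT was 0.32 (limma adjusted p = 0.759). A dim gene can show only part of a fall before its signal meets the background, so the sizes for Aga, Ctsh and Lipa are not ranked.

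The other lipid genes did not share that pattern. Psap, the precursor of the saposins that present lipids to hydrolases, read 1.29 and 0.62 in WT, 1.5 and 1.81 in mock, and 2.45 and 2.37 in Flag15-2. It had the highest Flag15-2 minus WT difference of the 34 genes, 1.45 (limma adjusted p = 0.0946), and its WT arrays differed by more than those of most members. Npc2, the soluble cholesterol carrier, Smpd1, the acid sphingomyelinase, and Ppt1, a thioesterase that removes palmitate, had mock minus WT differences of 0.16, -0.31 and -0.00.

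Of the 4 membrane proteins, Lamp2 was lower in the knockout groups by its brighter probe. Lamp2 encodes a lining protein of the lysosome with splice forms that serve autophagy. The probe read 1.64 and 1.60 in WT, 1.05 and 0.98 in mock, and 0.80 and 0.78 in Flag15-2. All knockout arrays lay below WT, 1.52-fold in mock (limma adjusted p = 0.0403), and the value did not return with Flag15-2 (Flag15-2 minus WT -0.83, limma adjusted p = 0.0537). A second probe, assigned to another Lamp2 transcript, read 1.08 and 1.02 in WT, 1.18 and 1.26 in mock, and 0.91 and 1.22 in Flag15-2. It gave a mock minus WT difference of 0.17 (limma adjusted p = 0.494), so the direction for Lamp2 depends on the probe. Lamp1, the major lining protein, read 4.64 and 4.66 in WT, 5.00 and 5.36 in mock, and 5.03 and 5.50 in Flag15-2. All 4 knockout arrays stood above WT for Lamp1, and the difference of 0.52 was not called (limma adjusted p = 0.216). Scarb2, the receptor that brings glucocerebrosidase to lysosomes, and Npc1, the cholesterol exporter, differed by 0.37 and 0.09 between mock and WT.

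Without regard to calls, more of the list lay higher in mock than lower. Both mock arrays stood above both WT arrays for 18 of the 34 genes and below them for 6, where 39.3% of all features well above background everywhere lay above and 27.3% below. Both Flag15-2 arrays stood below both mock arrays for 15 of the 34 and above them for 5, against 19.5% and 16.9% of the features. Within lines, Flag15-2 was below mock in both for 22 of the 34 genes and above in both for 9, against 37.6% and 33.9% of the features. Both comparisons share the mock arrays, so the opposite directions are not independent.

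The genome around Aga and Ctsh was compared next, using the 3 nearest tested genes on each side in the RefSeq order. Limma called none of the 12 neighbours. An unadjusted p under 0.05 was found for 4 of them in mock against WT, where 27.3% of all features had one, and for 3 in Flag15-2 against mock, where 13.4% had one. Next to Aga on chromosome 8 lies Neil3, a DNA glycosylase gene, which read -1.86 and -1.78 in WT, -4.76 and -2.94 in mock, and -1.77 and -1.61 in Flag15-2. Mock lay below both other groups without overlap, by -2.03 against WT (limma adjusted p = 0.132). Without mock replicate 2, Neil3 was called, at -2.94 against WT and 3.07 for Flag15-2 minus mock. On the other side, Tenm3, a teneurin gene of neuronal wiring, read 1.18 and 1.25 in WT, 0.41 and -0.51 in mock, and 1.07 and 0.75 in Flag15-2, again lowest in mock without overlap (mock minus WT -1.26, limma adjusted p = 0.105). The further neighbours Wwc2, Dctd, Vegfc and Spcs3 differed from WT by -0.19 to 0.02 in mock, and each was higher in line 2 than in line 1 in both knockout groups. Around Ctsh on chromosome 9, the neighbours Zfp949, Mthfs, Tmed3, Morf4l1, Adamts7 and Tbc1d2b differed by -0.50 for Mthfs (limma adjusted p = 0.0518) to 0.57 for Adamts7. Mthfs read 1.92 and 1.88 in WT, 1.41 and 1.38 in mock, and 1.52 and 1.55 in Flag15-2, so both mock arrays lay below the others. All 12 neighbours were well above background on every array. Of all features that met this condition, 27.3% had both mock arrays below both WT arrays. Both Flag15-2 arrays lay above both mock arrays for 16.9%. The share that met both conditions was not computed, so the neighbours lowest in mock are not set against it.

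**Figure D3:**
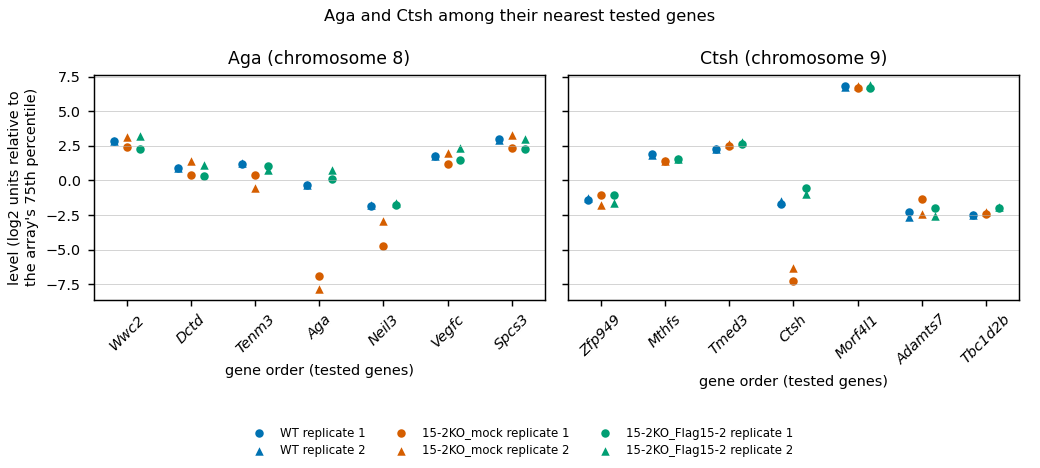
Level (log2 signal minus the array's 75th percentile) of Aga, left, and Ctsh, right, between the 3 nearest tested genes on each side, with 1 symbol per array coloured by group. The mock symbols of Aga lie at -6.92 and -7.87 and those of Ctsh at -7.24 and -6.32. Among the 12 neighbours, Neil3, Tenm3 and Mthfs have both mock symbols below the other groups. Of all features well above background everywhere, 27.3% have both mock arrays below both WT arrays, and 16.9% have both Flag15-2 arrays above both mock arrays. The share with both was not computed.

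Aga lies on chromosome 8, which differed between the knockout lines as a whole. The median of 647 expressed chromosome 8 genes against the WT mean was -0.01 in mock and -0.01 in Flag15-2 of line 1, but 0.46 in mock and 0.42 in Flag15-2 of line 2. The line difference was 0.48 in mock and 0.47 in Flag15-2, where the other 19 chromosomes with at least 100 genes gave -0.06 to 0.04 and -0.06 to 0.09. Besides Aga, the list holds Asah1, Lamp1, Man2b1 and Galns on this chromosome. All 4 were higher in line 2 than in line 1 in both groups, by a median of 0.30 in mock and 0.44 in Flag15-2, against 0.14 and 0.01 for the 30 genes elsewhere. Aga itself was not well above background in mock of either line. The part of this chromosome-wide difference in the values of these genes was not tested.

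**Figure D4:**
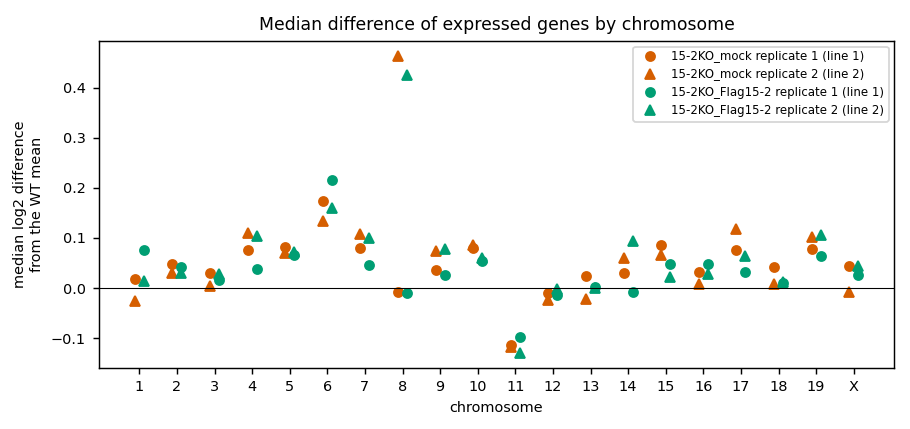
Median log2 difference from the WT mean over the expressed genes of each chromosome, for each of the 4 knockout arrays, with circles for line 1 and triangles for line 2. On chromosome 8 the line 2 arrays stand at 0.46 and 0.42 and the line 1 arrays at -0.01, while the medians on the other chromosomes lie between -0.13 and 0.22.

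Promoters were looked at for the motif CACGTG, the core of the element bound by the Tfeb family, which reads the same on both strands. The RefSeq table of assembly GRCm38.p6 held promoters for 34 of the 40 genes; Aga, Ctsh, Ctsb, Npc1, Asah1 and Galns were not matched. The motif stood within 250 bases before the start in 12 of the 34 genes (35.3%), against 9.94% of the 10608 tested genes with a promoter in the table. The 12 genes were Ctsa, Ctsd, Ctsf, Ctsl, Lgmn, Glb1, Gaa, Gla, Naglu, Arsa, Sgsh and Lamp1. Their median difference of mock minus WT was 0.27, from -0.57 to 0.54, and that of the 20 tested genes without the motif was 0.07. A longer form of the motif, of 10 bases, stood in none of the 37 promoters of these 34 genes. It stood in 0.488% of the 13519 promoters of tested genes, a share too low for 37 promoters to be compared with. A match is a string of letters and not a binding site.

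The 250 bases before the start are shown for the genes called in mock against WT, all on the minus strand, 5′ to 3′, with CACGTG in capitals. They lie at chr7:142387828-142388077 for Ctsd, chr7:105752236-105752485 for Tpp1, chrX:38456461-38456710 for Lamp2 and chr19:34527475-34527724 for Lipa, in GRCm38.p6.
Ctsd: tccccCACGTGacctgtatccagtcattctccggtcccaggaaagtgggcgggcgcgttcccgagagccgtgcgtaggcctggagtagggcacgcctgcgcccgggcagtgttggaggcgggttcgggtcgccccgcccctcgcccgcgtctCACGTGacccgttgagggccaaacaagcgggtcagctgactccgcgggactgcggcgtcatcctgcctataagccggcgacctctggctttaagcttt
Tpp1: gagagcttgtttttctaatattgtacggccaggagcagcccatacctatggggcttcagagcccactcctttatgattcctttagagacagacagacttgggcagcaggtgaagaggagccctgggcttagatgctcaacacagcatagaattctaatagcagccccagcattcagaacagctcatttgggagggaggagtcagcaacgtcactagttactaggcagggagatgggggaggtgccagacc
Lamp2: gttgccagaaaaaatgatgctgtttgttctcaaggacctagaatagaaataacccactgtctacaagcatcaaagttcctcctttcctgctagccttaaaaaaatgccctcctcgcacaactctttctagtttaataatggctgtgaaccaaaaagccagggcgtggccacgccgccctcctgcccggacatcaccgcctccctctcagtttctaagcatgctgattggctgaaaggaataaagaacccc
Lipa: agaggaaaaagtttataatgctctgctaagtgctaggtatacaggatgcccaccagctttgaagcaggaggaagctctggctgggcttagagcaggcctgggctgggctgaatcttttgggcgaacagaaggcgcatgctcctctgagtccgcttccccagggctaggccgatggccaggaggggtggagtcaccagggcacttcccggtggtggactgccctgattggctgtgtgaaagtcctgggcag
Of these 4, Ctsd alone holds the motif, in 2 copies that start 245 and 98 bases before the gene. Ctsd and Tpp1, both called higher in mock, thus differ in it, and Lipa and Lamp2, both called lower, lack it. The direction for Lamp2 depends on the probe and the 4 calls were not stable, so nothing is read from this about direction.

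The rest of the lysosomal system was read from 7 further lists of 100 genes, of which 92 were tested. In mock against WT 5 of the 92 were called higher and none lower, where 2.47% and 3.65% of all features were. The 5 became 4 without either Flag15-2 array and 0 without any single WT or mock array, and in Flag15-2 against mock and Flag15-2 against WT limma called none, with 9 and 20 of the 92 at an unadjusted p under 0.05, against 13.4% and 21.6% of all features. The 16 tested V-ATPase subunits, parts of the proton pump, had a median of 0.38 for mock minus WT and -0.21 for Flag15-2 minus mock, with 2 called. Atp6v1f, a subunit of the catalytic part, read 5.37 and 5.40 in WT, 6.06 and 6.20 in mock, and 5.94 and 5.85 in Flag15-2 (mock minus WT 0.75, limma adjusted p = 0.0359). Atp6v0c, the ring subunit that carries protons, read 0.90 and 0.88 in WT, 1.49 and 1.72 in mock, and 1.42 and 1.43 in Flag15-2 (limma adjusted p = 0.045). For both, all knockout arrays stood above WT.

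Among 17 further membrane proteins, with a median of 0.31, Laptm5 and Cln3 were called. Laptm5, a membrane protein of blood cell lysosomes, read -1.36 and -1.37 in WT, 0.25 and 0.09 in mock, and -0.44 and -0.72 in Flag15-2. Mock was highest and Flag15-2 lay between, with mock minus WT at 1.54 (limma adjusted p = 0.0163). Cln3, a transmembrane protein of the endolysosome, read 0.19 and 0.16 in WT, 1.05 and 1.07 in mock, and 0.90 and 0.75 in Flag15-2, higher than WT on all knockout arrays (limma adjusted p = 0.0252). Nagpa, which uncovers the mannose 6-phosphate tag, was the 1 called gene of 10 for targeting and maturation, at 0.81 above WT in mock (limma adjusted p = 0.0289). The further hydrolases, the regulators and nutrient sensors, the autophagy genes and the cathepsin inhibitors had no called gene, with medians of 0.23, 0.20, 0.22 and -0.14 for mock minus WT.

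**Figure D5:**
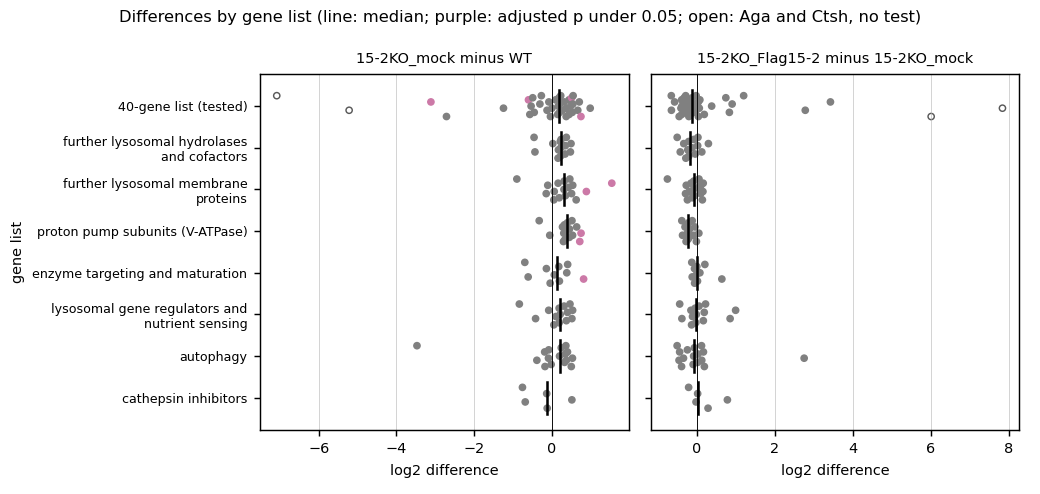
Log2 difference of each tested gene in mock against WT (left) and Flag15-2 against mock (right), by gene list, with a bar at each list's median, purple points for an adjusted p under 0.05 in limma and open points for Aga and Ctsh. In the left panel the medians lie between -0.14 for cathepsin inhibitors and 0.38 for V-ATPase subunits, and the points far to the left of them belong to the 40-gene list and, at -3.47, to Gabarapl1 of the autophagy list.

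Markers of other cells were measured because cathepsins are abundant in some of them. Of 10 fibroblast and feeder markers, 9 were tested, with a median of -2.98 for mock minus WT and 0.59 for Flag15-2 minus mock. Fbn1, Loxl1 and Mmp2 were called lower in mock and higher with Flag15-2, where 3.65% and 0.704% of all features were. The median of Flag15-2 minus WT was -0.78, with 1 marker called lower, where 0.389% of all features were. These calls too hold only with both WT arrays in the fit. Mmp2, a matrix metalloprotease, read -0.33 and -0.36 in WT, -4.37 and -4.87 in mock, and -0.68 and -0.75 in Flag15-2. The summed signal of the fibroblast and feeder markers was 6.25 to 6.60 times the 75th percentile in WT, 2.37 to 2.58 in mock and 3.1 to 3.22 in Flag15-2. Of these 10 markers, 8 were well above background on both WT arrays, 5 in mock and 7 in Flag15-2, and 1, 3 and 2 were so on no array of the group. Col1a1, a collagen among these markers, read 0.78 and 0.75 in WT, -1.69 and -3.54 in mock, and -1.56 and -3.87 in Flag15-2. The 8 macrophage markers with a probe summed to 0.31 to 0.50 in WT, 0.43 to 0.57 in mock and 0.28 to 0.32 in Flag15-2, with overlap between mock and WT, and 4, 5 and 5 of them were well above background on no array of the group. The part of the fibroblast and feeder markers in the differences of Aga, Ctsh, Lipa and Ctss was not tested.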

How the data were processed

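Per the file headers, the deposited intensity values are scanner output of Agilent Feature Extraction (version 10.7.3.1, protocol GE1_107_Sep09; genome build mm9), linear, background-subtracted and not scaled between arrays. The authors' log2 values of the series matrix served as 1 alternative: their column medians were 5.84 to 5.86 and their correlation with the scanner's log2 signal was at least 0.9997, so they are uncentred and run the same way.

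Control and outlier spots were left out, and spots of a probe were averaged. Each array's 75th percentile (719 to 856 intensity units) was subtracted on the log2 scale. A probe was tested if 2 of the 6 arrays or more had it well above background, with 1 probe per symbol (RefSeq names, GRCm38.p6). This gave 13297 genes and 5466 unnamed probes. They entered 1 limma fit of all arrays (limma 3.58.1 in R 4.3.3), with no term for the knockout line. Benjamini-Hochberg adjustment ran over 18763 features, with calls at an adjusted p under 0.05, two-sided. The fit was checked on simulated arrays with independent noise of equal spread in every group. That check does not cover the close WT pair or the shared knockout lines. The files held no mean signal, so normexp used the median signal, unlike the plan.

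The members and lists were chosen with earlier results of these data known. By rule the text names Aga, Ctsh, the called and the undetected members, the extremes of each comparison, called genes of the related lists and all neighbours. Other members, Gabarapl1 and single cell type markers were named after their values were seen. Same-numbered mock and Flag15-2 arrays share a knockout line per the labels, and their deviations from the group means correlated at 0.59, against -0.04 for WT with mock and 0.01 for WT with Flag15-2. The alternatives covered background, scaling, filter, probe, model and replicates.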

Additional observations from a re-analysis of the deposited data

How the results depend on the processing

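Aga and Ctsh kept their direction in mock against WT and in Flag15-2 against mock under every alternative run that tested them. Normexp, with an offset of 50 and the median signal as input, gave smaller sizes. They were -3.20 and 3.87 for Aga, -2.17 and 2.84 for Ctsh, and -0.89 and 1.25 for Lipa, all smaller than the bounds given above. Which of these settings made the sizes smaller was not tested. The count of called members, Aga and Ctsh included, was 6, 2 and 0 in mock against WT, Flag15-2 against mock and Flag15-2 against WT. Aga and Ctsh make up 2 of the 6 and both of the 2, and nothing is read from them. In mock against WT it was 10 with normexp and with an intensity trend, 2 with no filter, with the second brightest probes and with the replicate block, and 0 with WT averaged. In Flag15-2 against mock it was 0 with the replicate block, with the 4 knockout arrays with or without the replicate block, with WT averaged, and with probes above background on all arrays, which drops both genes. In Flag15-2 against WT it was 2 with an intensity trend and 1 with normexp, quantile normalization and the series matrix. The 5 related genes called in mock against WT became 10 with normexp, 12 with an intensity trend, 1 with no filter and with the replicate block, and 0 with WT averaged, and in Flag15-2 against WT 1 or 2 with normexp, an intensity trend, quantile normalization and the series matrix. Mthfs made 1 called neighbour with normexp, an intensity trend, quantile normalization, the series matrix and the stricter filter. The cause was not tested. Lamp2 reversed to 0.17 with its second probe.

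Leaving out 1 array at a time gave 0 to 4 called members, a median of 0.094 to 0.33, 0 to 4 related genes and 0 to 1 neighbours in mock against WT, and 0 to 3 members and 0 to 1 neighbours in Flag15-2 against mock. With 1 WT array left out nothing was called, and with 1 Flag15-2 array left out no member was called in Flag15-2 against mock. A lone array is assumed to vary like the other groups. The call in mock against WT was lost in 13 of 16 alternatives for Ctsd, 11 of 16 for Lamp2, its second probe included, 12 of 15 for Lipa and 11 of 16 for Tpp1. Slide as a block could not be fitted, since each comparison with Flag15-2 lies across slides. The arrays of slide 1 alone gave mock against WT, with the same values as each fit with 1 Flag15-2 array left out. Quantile normalization and the series matrix gave nearly the same values as each other. The alternatives counted for each gene are therefore not independent.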
